A study of Mus musculus with 4 samples.

Results

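The genes described here are 10 members of the negative feedback and transcriptional output of the ERK pathway, namely 6 dual-specificity phosphatases (Dusp2, Dusp4, Dusp5, Dusp6, Dusp8 and Dusp10), 3 Sprouty genes (Spry1, Spry2 and Spry4) and the ETS transcription factor gene Etv4. They were chosen by name from the 750 endogenous probes of a NanoString panel of cancer pathway genes, and each of the 10 names was found once. To ask what losing Blimp1 in regulatory T (Treg) cells does to the tumor, the study sorted live CD45- cells from B16-OVA tumors, a transplantable mouse melanoma that expresses ovalbumin. There were 2 samples from FoxP3YFP-Cre mice (WT) and 2 from Prdm1fl/flFoxP3YFP-Cre mice (KO), all on the C57BL/6 background. Both groups carried the Cre transgene, which is driven by Foxp3, so that Prdm1, the gene of Blimp1, was deleted in KO mice in Treg cells and not in the sorted cells. Mice of both groups received tumor cells under the skin on day 0 and NP-OVA antigen into the peritoneum on days 0 and 7, with complete and then incomplete adjuvant, and tumors were taken at up to 1.5 cm3. No label gave the age or sex of the mice or said whether samples were separate animals, so p-values measure the spread between these samples, which may be technical.

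In the ERK pathway, Ras activates the Raf kinases, which activate MEK and then the ERK kinases, and active ERK induces the genes of its own inhibitors. Dual-specificity phosphatases remove phosphate from both the threonine and the tyrosine of the activation loop of MAP kinases. Dusp6 acts in the cytoplasm with a strong preference for ERK, Dusp5 is a nuclear phosphatase specific for ERK, Dusp2 and Dusp4 are nuclear phosphatases with a wider range, and Dusp8 and Dusp10 act mainly on JNK and p38. Sprouty proteins inhibit signaling from receptor tyrosine kinases to Ras and ERK, and Etv4 is a transcription factor of the PEA3 group whose transcription follows ERK activity. In melanomas with high ERK activity, the transcripts of DUSP6, Sprouty and ETV genes are widely used as a readout of pathway output.

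The nCounter assay counts 1 barcoded probe per target molecule on RNA that is not amplified, and each count was divided by a sample-specific factor from the 20 housekeeping probes (0.935 to 1.06) to give the scaled counts used below. The 750 gene probes of a sample held 626056 to 692284 counts. A gene was tested if its count exceeded a background limit, the mean plus 2 SD of the 8 negative control probes of the same sample (17.5 to 21.9 counts), in at least 2 of the 4 samples, which 446 genes did. All 10 genes described here exceeded it in all 4 samples. KO 2 stood apart from the other samples. Its log2 scaled counts of the tested genes correlated at 0.975 to 0.981 with theirs, against 0.989 to 0.993 among the other 3. Of these 3, KO 1 correlated with WT 1 (0.993) and WT 2 (0.990) more than the WT samples did with each other (0.989). Of 10 measured leukocyte markers, 3 or 4 exceeded the limit in each sample, while of 5 melanocyte lineage genes 4 did. Among these were Pax3 at 1576 to 1979 scaled counts and Met at 1052 to 1961. Of 7 measured fibroblast and pericyte markers 6 exceeded the limit in 3 samples and 3 in KO 2. Their scaled counts summed to 862 and 1584 for WT, against 1264 and 1109 for KO samples. Most of each sum was Fn1, at 610 and 1139 against 985 and 962. Col1a1, Col1a2 and Col3a1 were instead lowest in KO 2 and below the limit there. Col3a1 was at 68.0 and 162 against 88.7 and 16.2, and Col1a1 at 28.3 and 112 against 57.7 and 12.4. Col1a2 was at 34.0 and 55.1 against 33.1 and 16.2. Col5a1 was nearly level, at 23.6 and 29.1 against 24.6 and 25.7. Transcripts of these marker genes were thus detected, fewer of them in KO 2, and which of the sorted cells held them was not tested. In such bulk samples fewer cells of a type and less RNA per cell cannot be told apart.

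The 250 bases before the annotated start of 4 of the genes are shown because their transcripts stood for different patterns in these samples: Dusp6, the most abundant in WT and lower in KO samples, Spry2, higher in both KO samples, Dusp10, high in KO 2 alone, and Dusp5, the least abundant, which ranged from 27 to 33 raw counts. They are from RefSeq (assembly GRCm38.p6), where 7 of the 10 genes had a promoter sequence, each 5′ to 3′ on the strand of the gene. They lie at chr10:99262981-99263230 (plus strand, Dusp6), chr14:105896820-105897069 (minus strand, Spry2), chr1:184034131-184034380 (plus strand, Dusp10) and chr19:53528895-53529144 (plus strand, Dusp5). Capitals mark GGAA on either strand, the core that ETS factors such as Etv4 bind, the CArG box bound by serum response factor, and the CRE core TGACG on either strand.
Dusp6: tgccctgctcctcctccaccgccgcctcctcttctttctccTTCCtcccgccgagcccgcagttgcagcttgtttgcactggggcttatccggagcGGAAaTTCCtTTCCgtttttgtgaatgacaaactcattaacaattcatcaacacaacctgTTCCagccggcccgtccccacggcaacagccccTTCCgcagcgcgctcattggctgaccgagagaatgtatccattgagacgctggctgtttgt
Spry2: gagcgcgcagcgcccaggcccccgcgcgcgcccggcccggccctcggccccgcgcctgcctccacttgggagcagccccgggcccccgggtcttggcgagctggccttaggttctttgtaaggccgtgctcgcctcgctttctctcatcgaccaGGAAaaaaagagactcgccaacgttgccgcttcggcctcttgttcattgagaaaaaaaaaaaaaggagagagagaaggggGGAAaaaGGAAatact
Dusp10: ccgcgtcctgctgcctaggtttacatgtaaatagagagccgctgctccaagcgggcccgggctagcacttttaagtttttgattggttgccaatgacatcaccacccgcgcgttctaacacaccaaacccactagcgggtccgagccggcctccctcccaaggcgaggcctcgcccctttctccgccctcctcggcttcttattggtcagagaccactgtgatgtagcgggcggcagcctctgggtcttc
Dusp5: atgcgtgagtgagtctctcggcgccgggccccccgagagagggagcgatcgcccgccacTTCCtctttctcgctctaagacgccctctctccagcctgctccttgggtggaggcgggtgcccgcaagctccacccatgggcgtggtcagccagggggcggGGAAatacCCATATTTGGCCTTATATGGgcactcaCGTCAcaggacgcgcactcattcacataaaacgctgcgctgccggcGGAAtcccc
The Dusp6 stretch held 6 GGAA cores, where the median of 27025 promoter stretches of the same length was 3 and 8.70% had 6 or more. The Spry2 stretch held 3, the Dusp5 stretch 3 and the Dusp10 stretch 0, as in 6.63% of all promoters. The Dusp5 stretch had 2 adjacent CArG boxes, a motif in 1.40% of all promoters and in none of the other 6 promoters of these genes. It held 1 TGACG too, a motif in 17.9% of all promoters and, beside Dusp5, in the Dusp8 promoter. The AP-1 motif TGANTCA (6.87% of all promoters) and the longer ETS motif CCGGAA, which contains the GGAA core (12.2%), were in 0 of the 7 promoters. These matches describe letters and not binding.

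Dusp6 and Dusp4 gave by far the most counts among the phosphatase probes, and Dusp5 the fewest. Probes differ in how well they capture their target, so the order is that of probe counts. Together the probes of Dusp6 and Dusp4 held 95.5% to 96.7% of the counts of the 6 phosphatase probes in each sample. Dusp6 gave 3733 and 4239 scaled counts in the WT samples, against 3339 and 3306 in the KO samples. Both KO samples thus lay below both WT samples and close to each other. Dusp4 gave 3684 and 3808 scaled counts in the WT samples, against 3780 and 3782 in the KO samples, a range narrower than that between the WT samples of Dusp6. Averaged over the 4 samples, Dusp4 ranked 22 and Dusp6 23 by scaled count among the 446 tested genes. The top position changed with the group: the Dusp6 probe was first in both WT samples and the Dusp4 probe in both KO samples. In the WT samples the means of the neighbours, 3986 ± 358 for Dusp6 and 3746 ± 87.4 for Dusp4 (SD, n = 2), differed by less than the SD of Dusp6.

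The other 4 phosphatase probes gave far fewer counts. Dusp2, which is best known from activated leukocytes, gave 135 and 106 scaled counts in the WT samples, against 95.2 and 56.2 in the KO samples. KO 2 was the lowest, at 0.501 times the mean of the other samples, and the groups did not overlap. Dusp8 was at 98.2 and 95.7 in WT and at 95.2 and 109 in KO samples, with overlapping groups. Dusp10 was at 40.6 and 41.6 in WT and at 39.6 and 137 in KO samples. KO 2 thus held 3.38 times the mean of the other samples, while the remaining 3 samples were almost equal. In raw counts KO 2 had 144 (95% Poisson interval 121 to 170) and KO 1 had 37 (26.1 to 51.0), so the KO samples differed by more than counting error, which is the only error these intervals cover. Dusp5 was at 26.4 and 34.3 in WT and at 28.9 and 29.5 in KO samples, and its 27 to 33 raw counts were the closest of the 10 genes to the background limit. From the third position down, the order was Dusp2, Dusp8, Dusp10, Dusp5 in both WT samples. In KO 1 Dusp2 and Dusp8 were tied at 89 raw counts, above Dusp10 and Dusp5, and in KO 2 the order was Dusp10, Dusp8, Dusp2, Dusp5.

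Among the Sprouty genes the order Spry2, Spry4, Spry1 was the same in all 4 samples. Spry2 gave 426 and 467 scaled counts in the WT samples, against 484 and 709 in the KO samples. Both KO samples lay above both WT samples, KO 1 by a small margin over WT 2 (453 and 449 raw counts) and KO 2 clearly. Spry4 was at 416 and 357 in WT and at 305 and 399 in KO samples, and the groups overlapped. Spry1 was at 107 and 99.9 in WT and at 101 and 138 in KO samples, again overlapping, with KO 2 the highest. In WT 1 Spry2 and Spry4 were almost level, at 44.9% and 43.8% of the summed Sprouty counts, whereas in the KO samples Spry2 took 54.4% and 56.9% and Spry4 34.3% and 32.0%.

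Etv4 gave 111 and 80.1 scaled counts in the WT samples, against 141 and 246 in the KO samples. Both KO samples lay above both WT samples, KO 2 by the larger margin at 2.22 times the mean of the other samples. The 3 other ETS family genes on the panel were Etv1, a second PEA3 factor, at 170 and 131 in WT and at 135 and 160 in KO samples, Ets2 at 237 and 306 against 252 and 335, and Elk1, an ERK substrate, at 34.0 and 37.5 against 25.7 and 27.6. The groups overlapped for Etv1 and Ets2, while Elk1, close to background at 24 to 36 raw counts, was lower in both KO samples.

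**Figure D1:**
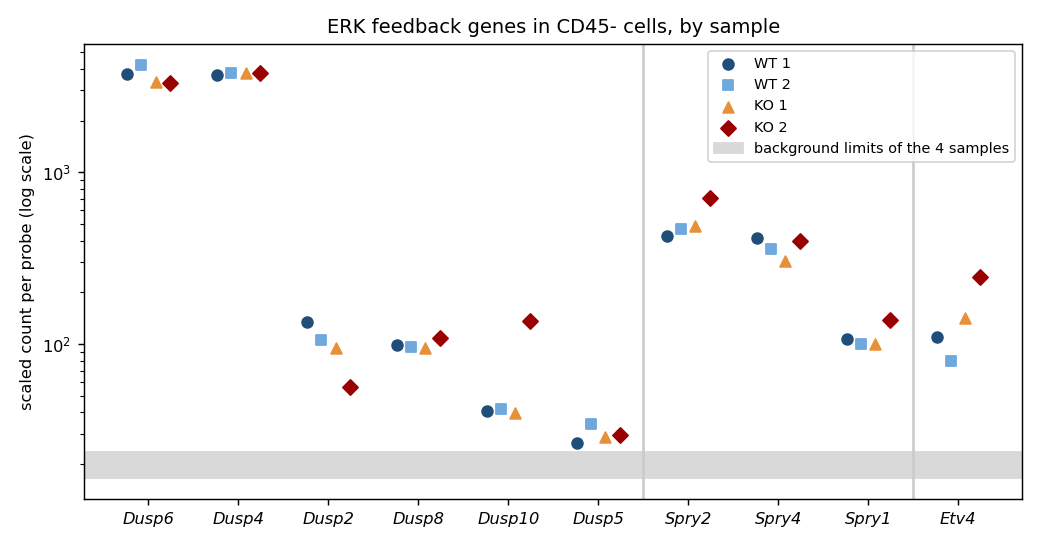
Scaled counts of the 10 genes (y axis, log scale) by gene (x axis), with 1 point per sample and the grey band spanning the background limits of the 4 samples. Dusp6 and Dusp4 lie above 3300 in each sample, KO 2 stands apart from the other 3 for Dusp10 (137), and the points of Dusp5 lie just above the band.

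None of the 10 genes passed an adjusted p of 0.05 between KO and WT samples, and Etv4 was the 1 gene at an unadjusted p under 0.05. The comparison was made with edgeR's quasi-likelihood test over all 446 genes with Benjamini-Hochberg adjustment, in which 0 genes (0.0%) passed the adjusted threshold and 33 (7.40%) had an unadjusted p under 0.05. DESeq2 called 3 genes at the adjusted threshold and limma-voom 0, with none of the 10 among them. Etv4 had a log2 fold change of 1.02 ± 0.32 (SE), 2.03-fold higher in KO samples, with 0.25 and 1.79 as the bounds of its 95% interval (edgeR, unadjusted p = 0.0173, adjusted p = 0.538). It ranked 12 by p among the tested genes. With 1 sample left out, its log2 fold change lay between 0.56, without KO 2, and 1.36, without KO 1.

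Dusp6 had a log2 fold change of -0.26 ± 0.11 (SE), with 95% bounds of -0.53 and 0.01 (edgeR, unadjusted p = 0.0559, adjusted p = 0.569). This difference did not rest on KO 2: without KO 2 the log2 fold change was -0.26 and without KO 1 it was -0.27, while without WT 2 it was -0.17. It depended on the scaling, at -0.18 with TMM factors and -0.13 with positive control scaling (adjusted p = 0.979). Dusp4 had a log2 fold change of 0.01 with an interval from -0.23 to 0.26 (adjusted p = 0.954), the narrowest of the 10. Dusp2 had one of -0.68 with an interval from -1.45 to 0.09 (adjusted p = 0.569), which was -0.34 without KO 2 and -1.10 without KO 1. Beside Dusp2, all 3 tested leukocyte markers (Pik3cd, Plcg2 and Jak3) were lower in both KO samples, as 31.4% of all tested genes were, and the summed scaled counts of the 10 measured leukocyte markers were 228 and 254 for WT and 206 and 173 for KO samples. Pik3cd was at 57.6 and 78.0 against 49.2 and 40.0. Csf1r, which marks macrophages and monocytes, was below the limit in each sample. The part of leukocyte transcripts in the Dusp2 values was not tested.

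Spry2 had a log2 fold change of 0.42 ± 0.19 (SE), with 95% bounds of -0.04 and 0.88 (edgeR, unadjusted p = 0.0685, adjusted p = 0.569). It was 0.12 without KO 2 and 0.67 without KO 1. Dusp10 had the highest log2 fold change of the 10, 1.11, and the widest interval, from -0.28 to 2.50 (adjusted p = 0.582). Its value turned to -0.06 without KO 2, and without KO 1, where KO 2 alone stood for its group, it was 1.73. The intervals of the other genes also spanned 0, for Spry1 from -0.37 to 0.79, for Spry4 from -0.54 to 0.27, for Dusp8 from -0.46 to 0.60 and for Dusp5 from -0.77 to 0.66. With 2 samples per group, differences within these bounds were not excluded.

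**Figure D2:**
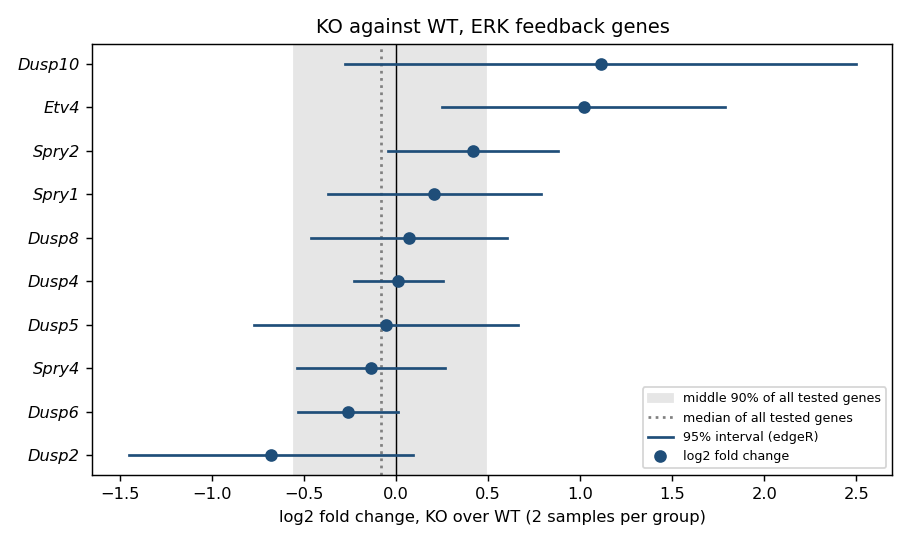
Log2 fold change of KO over WT (x axis) for the 10 genes (y axis), with points for the edgeR estimate, lines for its 95% interval, grey for the middle 90% of the 446 tested genes and a dotted line for their median (-0.08). The interval of Etv4 (0.25 to 1.79) is the 1 that lies wholly to one side of 0.

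**Figure D3:**
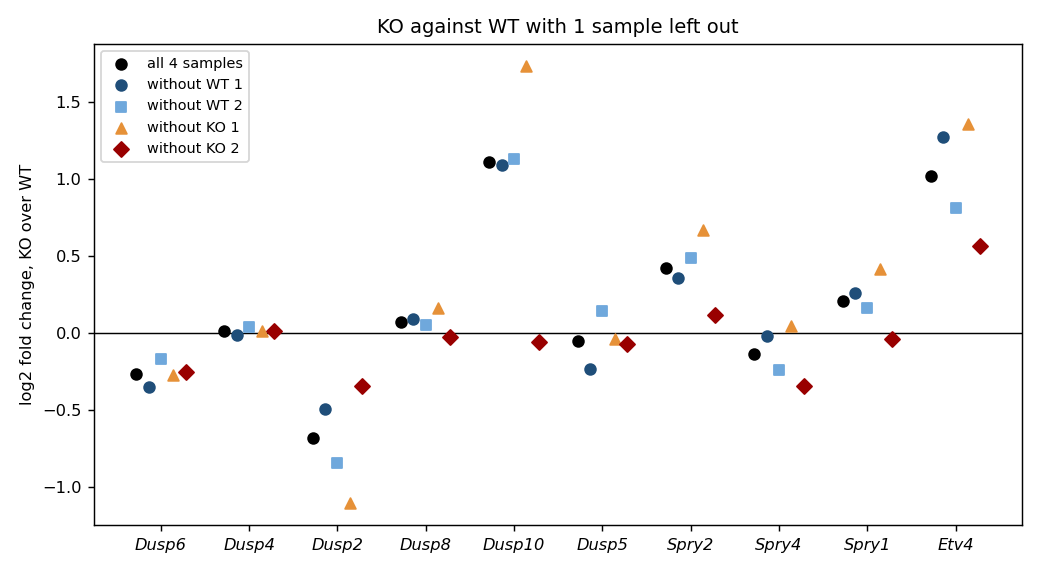
Log2 fold change of KO over WT (y axis) for each gene (x axis) with all 4 samples and with each sample left out in turn. Dusp10 goes from 1.11 to -0.06 without KO 2, whereas Dusp6 stays between -0.35 and -0.17 whichever sample is left out.

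By fitted log2 fold change 6 were higher and 4 lower in KO samples, against 33.2% higher and 66.8% lower among all tested genes, with a median of 0.04 against -0.08. Groups did not overlap for 4 of the 10 genes, Etv4 and Spry2 higher and Dusp6 and Dusp2 lower, where 42.6% of all tested genes had groups that did not overlap (11.2% higher, 31.4% lower). That share is near the background. KO 2 was the highest sample for 5 of the 10, Dusp8, Dusp10, Spry1, Spry2 and Etv4, and for 21.5% of all tested genes. KO 2 exceeded each of the other samples at least 1.5-fold for 2 of the 10, Dusp10 and Etv4, and for 2.91% of all tested genes. Without KO 2, 3 of the 10 were higher and 7 lower. A difference of at least 1.5-fold was seen for 3 of the 10, Dusp2, Dusp10 and Etv4, and for 8.07% of all tested genes. The absolute log2 ratio of KO 2 to KO 1 had a median of 0.42 over the 10 genes and of 0.21 over all tested genes.

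A ratio between 2 probes of the same sample does not depend on how samples were scaled. Of 8 such ratios, 7 had KO values that did not overlap WT values, although these ratios share genes and each of the 7 gave a p of 0.333 by exact two-sided permutation, the smallest that 2 samples per group allow. The pairs were chosen with earlier results known, and over all 99235 pairs of tested genes 38.1% had ratios that did not overlap. With the mean of the negative controls subtracted the number was 6, as Dusp6 to Dusp5 then overlapped. The ratio of Dusp6 to Dusp4 was 1.01 and 1.11 in WT but 0.883 and 0.874 in KO samples. The KO samples were close together here and below 1, and the mean log2 ratio differed by -0.27. The ratio of Etv4 to Dusp6, 2 genes induced by ERK, was 0.0296 and 0.0189 in WT but 0.0423 and 0.0743 in KO samples, a difference of 1.24 on the log2 scale. The ratio of Spry2 to Dusp6 was 0.114 and 0.110 in WT but 0.145 and 0.214 in KO samples. The WT samples were nearly equal in this ratio while the KO samples were apart from each other. The ratio of Spry4 to Spry2 was 0.976 and 0.764 in WT but 0.629 and 0.562 in KO samples, a difference of -0.54 on the log2 scale. The ratios of Etv4 to Spry2 (0.259 and 0.171 against 0.291 and 0.346), Dusp6 to Dusp5 (141 and 123 against 116 and 112) and Spry2 to Spry1 (3.99 and 4.68 against 4.82 and 5.14) had narrow gaps between groups. The ratio of Dusp4 to Dusp5 overlapped (139 and 111 against 131 and 128, exact two-sided permutation p = 1.0).

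**Figure D4:**
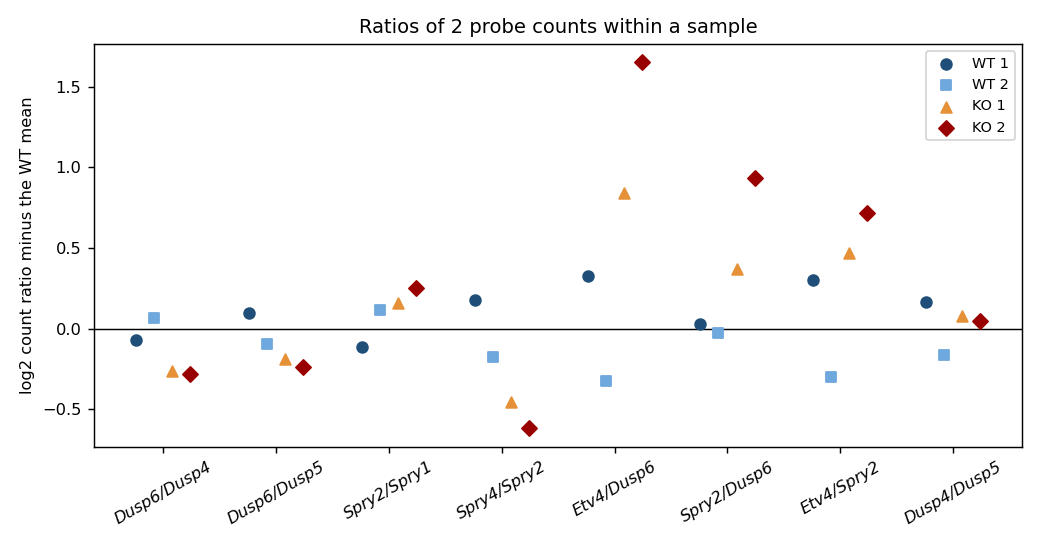
Log2 ratio of 2 probe counts within a sample, minus the mean of the WT samples (y axis), for 8 ratios (x axis), with 1 point per sample. The KO points of Dusp6/Dusp4 lie together below both WT points, and Etv4/Dusp6 has the widest gap between the group means (1.24).

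The tested genes of the cascade itself had log2 fold changes between -0.37 and 0.15. Of 18 measured genes of the ERK cascade 16 were tested. Against 33.2% higher and 66.8% lower among all tested genes, 5 of the 16 were higher in KO samples and 11 lower. Their median log2 fold change was -0.08, the same as over all tested genes, and 0 passed the adjusted threshold. Mapk3, which encodes ERK1, gave 2606 and 2670 scaled counts in the WT samples, against 2838 and 3030 in the KO samples. Rras2, a Ras-related GTPase gene, was the 1 gene of the list at an unadjusted p under 0.05, at 307 and 303 against 250 and 221 (log2 fold change -0.37, edgeR, adjusted p = 0.569). Ptpn11, which encodes the phosphatase SHP2, was at 1212 and 1244 against 1086 and 1037, and Sos1, a Ras exchange factor gene, at 237 and 234 against 214 and 153.

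Of 9 measured ERK-induced transcription factors and targets, a list that also held the ERK substrate Elk1, 8 were tested. Of these 8, 5 were higher in KO samples and 3, Elk1 among them, lower (median log2 fold change 0.30). KO 2 was the highest sample for 5. Among all tested genes 33.2% were higher in KO samples, and KO 2 was the highest sample for 21.5%. Ccnd1, which encodes cyclin D1, gave 2720 and 3219 scaled counts in the WT samples, against 3322 and 4938 in the KO samples (log2 fold change 0.48, edgeR, adjusted p = 0.569). Klf4 was at 450 and 389 against 310 and 3388, so that KO 2 was far above and KO 1 below the WT samples. Myc was at 2971 and 2833 against 2660 and 2060, lower in both KO samples as Dusp6 was. The summed scaled counts of these 9 genes were 18908 in KO 2 and 8722 to 10078 in the other samples. Most of that excess came from Klf4, Ccnd1 and the AP-1 subunit genes Fos and Jun, the last 2 named after their values were seen. Fos gave 2451 and 2197 in WT samples and 1282 and 5676 in KO samples, and Jun 1032 and 954 and then 732 and 2318, so that both were below the WT samples in KO 1 and above them in KO 2. KO 2 was also the highest sample for Dusp8, Dusp10, Spry1, Spry2 and Etv4, but not for Dusp2, Dusp4, Dusp5, Dusp6 or Spry4. In KO 1, Etv4 and Spry2 lay above both WT samples, though by small margins over the higher one, unlike Fos, Jun and Klf4.

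Of 8 measured genes of the JNK and p38 branches, on which Dusp8 and Dusp10 act, 6 were tested. Of these 6, 4 were higher in KO samples and 2 lower (median log2 fold change 0.02). The shares over all tested genes were 33.2% higher and 66.8% lower. Mapk8, which encodes JNK1, gave 340 and 380 scaled counts in the WT samples, against 404 and 449 in the KO samples, and Map2k6, a kinase that activates p38, was at 102 and 82.2 against 57.7 and 62.8 (log2 fold change -0.61, edgeR, adjusted p = 0.569). Mapk12, a p38 gene, was at 46.3 and 35.4 against 36.4 and 28.6. Above the cascade, 6 of 17 measured receptor tyrosine kinase genes were tested, 3 higher and 3 lower with a median of 0.03. Met was at 1052 and 1486 against 1258 and 1961, Erbb2 at 253 and 236 against 219 and 178 and Pdgfrb lower in both KO samples. None of these genes passed the adjusted threshold.

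The genes most like Etv4 and Dusp6 in their pattern were sought among 373 other tested genes with a mean of at least 50 scaled counts, by the root mean square distance between log2 values centred on each gene over the 4 samples. For Etv4 they were Pgf (distance 0.18), Bnip3 (0.20) and Itgb3 (0.28), which were each lowest in WT 2 and highest in KO 2. Pgf, which encodes an angiogenic factor, gave 196 and 137 scaled counts in WT but 306 and 565 in KO samples. Itgb3, an integrin subunit gene, was at 139 and 107 against 148 and 199. For Dusp6 they included Gnaq (0.01) and Fbxw7 (0.03). Gnaq, a G protein subunit gene, gave 548 and 638 scaled counts in the WT samples, against 493 and 493 in the KO samples, close in shape to Dusp6. With 4 samples many genes can share such a shape, and the distances are a description.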

How the data were processed

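Total RNA (100 ng per sample) from sorted CD45- cells was run by the authors on the mouse nCounter panel of cancer pathways. Raw counts of its 750 endogenous and 20 housekeeping probes and of 8 negative and 6 positive controls were deposited for 4 samples. The deposited scaled signal was each count times a factor of 0.877 to 0.986 that was constant within a sample, with a floor at 17. A column of the deposited table that gives the percent of samples above a threshold was not used. The authors used nSolver 4.0, whose settings are not given in the sources used here.

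Scaling factors were geometric means over housekeeping probes averaging at least 100 counts (20 of 20). Deposited counts of 446 genes were tested with edgeR 4.0.16 in R 4.3.3, with a threshold of 0.05 after Benjamini-Hochberg adjustment. The test was a two-sided quasi-likelihood F-test on genotype alone. Its p-values and intervals used 2 residual degrees of freedom plus prior degrees of freedom that edgeR estimated across the tested genes. Each standard error is the fold change on the log2 scale divided by the root of its F. Alternatives were 4 other scalings, DESeq2 1.42.0, limma-voom (limma 3.58.1), a replicate block, subtraction of background, other filters, leaving out each sample in turn, and the deposited signal in limma (log2 with a pseudocount of 1). No pair of samples agreed within counting noise (chi-square per degree of freedom at least 12.8). The genes and lists were chosen with earlier results of these data known. All 10 genes are named, with up to 3 genes of lowest p from each list and the 3 genes nearest to Etv4 and to Dusp6, and genes named for their level or as markers; the results of some of these are not reported here. Fibroblast, melanocyte, endothelial and leukocyte markers were lists too, and of 3 measured endothelial markers 1 exceeded the limit (Angpt2). Promoter sequences are those of RefSeq, assembly GRCm38.p6. The files name no genome build.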

Additional observations from a re-analysis of the deposited data

How the results depend on the processing

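Of the 10 genes, Dusp2, Dusp6, Spry2 and Etv4 kept the sign of their log2 fold change under all 16 alternatives. The sign of Dusp5 turned to 0.028 with TMM factors, 0.023 with DESeq2 size factors and 0.079 with positive control scaling. With 1 sample left out, values ranged from -0.010 (without WT 1) to 0.037 for Dusp4, -0.23 to 0.14 (without WT 2) for Dusp5, -0.028 (without KO 2) to 0.16 for Dusp8, -0.055 (without KO 2) to 1.73 for Dusp10, -0.040 (without KO 2) to 0.42 for Spry1 and -0.34 to 0.045 (without KO 1) for Spry4. The difference in the log2 ratio of Dusp4 to Dusp5 ranged from -0.10 (without WT 2) to 0.22. Without 1 sample, 0 to 3 of the 10 passed the adjusted threshold, the 3 being Dusp10, Etv4 and Spry2 without KO 1, where KO 2 alone stood for its group and was assumed to vary like the WT samples. Over all genes that count was 0 to 20, the 20 without KO 1, and it was 3 with the DESeq2 test and 1 with the replicate block. The replicate block gave 3 of the 10 at an unadjusted p under 0.05 and 48 genes in all, in place of 1 and 33. Deviations of same-numbered samples correlated at 0.04, so same-numbered samples were not treated as pairs. The genes at an unadjusted p under 0.05 numbered 52 without a filter, and 12 to 105 without 1 sample. Of the 10 genes, 2 had such a p with TMM factors, DESeq2 size factors or total count. Over all genes the numbers were then 32, 32 and 42. With positive control scaling, limma-voom or no filter, 3 of the 10 had such a p, and 28, 37 and 52 of all genes did. The median over all tested genes moved from -0.08 to 0.05 with positive control scaling, with which 7 of the 10 were higher. With a minimum mean count of 50 Dusp5 was left out.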
